A study of Mus musculus with 6 samples.

Results

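The SMAD proteins carry signals of the transforming growth factor-β (TGF-β) superfamily from the cell membrane to the nucleus, and the SMURF proteins limit them. The 10 mouse genes described here were chosen by name, 8 of them encoding SMADs (*Smad1* to *Smad7* and *Smad9*) and 2 encoding the SMURF ubiquitin ligases (*Smurf1* and *Smurf2*), out of 39179 genes in the count files. All 10 were found by their Ensembl identifiers. Their read counts were measured by RNA-seq in whole bone marrow of 6 littermate mice. The 3 *MxCDX2* mice (genotype RsCDX2::Mx1Cre) carried the human *CDX2* coding sequence at *Rosa26* behind an excisable stop, together with a Cre recombinase driven by the interferon-inducible *Mx1* promoter. The 3 control mice carried the silent knockin alone (RsCDX2), the Cre transgene alone (Mx1Cre) or neither (wild type), so that each control genotype was 1 mouse. All 6 mice, control mice included, received 3 doses of poly(I:C) at 10 µg/g at the age of 3 months and were analysed 6 weeks later. The *Mx1* promoter answers to interferon in many cell types and poly(I:C) acts on the whole animal, so the model does not confine Cre to 1 blood cell type.

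Ligands of the TGF-β superfamily bring together type I and type II receptor kinases, and the type I receptor phosphorylates receptor-regulated SMADs. SMAD2 and SMAD3 serve TGF-β and activin receptors, whereas SMAD1, SMAD5 and SMAD9 serve the receptors of bone morphogenetic proteins (BMPs). The phosphorylated proteins join SMAD4, the common partner, and act on transcription in the nucleus. SMAD6 and SMAD7 are inhibitory, and their genes are themselves induced by the pathway. SMURF1 and SMURF2 attach ubiquitin to SMADs and, brought there by SMAD7, to receptors. In the marrow, TGF-β restrains the division of stem cells and takes part in the maturation of monocytes. Phosphorylation, ubiquitination and nuclear entry are not seen in RNA counts.

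Between 38646101 and 49899650 reads were counted on genes per mouse. Values are given as normalized counts, which are read counts scaled by edgeR's TMM method to the mean library size, and 15980 genes passed the filter on low counts. Reads on the mouse gene *Cdx2*, the check of the labels, numbered 4, 0 and 0 in the RsCDX2, Mx1Cre and wild-type control mice and 152, 155 and 183 in *MxCDX2* mice 1, 2 and 3. Reads were aligned to the mouse genome, whereas the knockin holds the human sequence, so these counts do not measure its level. Markers of several cell types differed between the groups. The summed counts of 8 erythroid markers lay between 303940 and 394270 in the control mice and between 13993 and 61973 in the *MxCDX2* mice, with 8 of 8 markers lower by the test. Those of 8 monocyte markers lay between 85736 and 104230 in the control mice and between 357370 and 404920 in the *MxCDX2* mice, with 5 of 8 higher. Of 8 neutrophil markers 5 were lower, of 6 B-cell markers 4, of 6 megakaryocyte markers 2, of 6 endothelial markers 3, of 6 T and NK cell markers 1, of 6 stromal and bone markers 1 and of 6 stem and progenitor markers 2, with no other marker in these lists higher by the test. No marker was at 0 in a whole group. The wild-type mouse stood apart from the other control mice, with 261960 normalized counts over the 6 megakaryocyte markers against 31240 and 21818, and 4228 over the 6 endothelial markers against 1721 and 1408. In whole marrow, fewer cells of a type and less RNA per cell cannot be told apart.

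Of the SMAD and SMURF genes, *Smad7*, whose product inhibits the pathway, was higher in *MxCDX2* mice by the test, and no other gene passed. The filter on low counts kept 9 of the 10 genes, and 1 of these 9 had an adjusted p below 0.05 in edgeR (quasi-likelihood test, Benjamini-Hochberg adjustment over all tested genes). Over all tested genes, 3471 (21.7%) had an adjusted p below 0.05. No member also had an absolute log2 fold change above 1, the second threshold of the study's methods, which 2177 genes (13.6%) passed. At an unadjusted p below 0.05 there were 4 of the 9 genes, *Smad2*, *Smad3*, *Smad5* and *Smad7*, against 36.1% of all tested genes, and none of the 4 had a log2 fold change beyond 1 in size. DESeq2, which also fitted *Smad9*, gave 2 genes with an adjusted p below 0.05, *Smad7* and *Smad9*, beside 24.6% of all genes. With libraries scaled by their total counts alone, edgeR gave 5, *Smad2*, *Smad4*, *Smad5*, *Smad7* and *Smurf2*, all higher in *MxCDX2* mice. The share over all tested genes was 25% with that scaling. The median log2 fold change was 0.32 over the 9 genes and 0.00 over all tested genes, and the median of its absolute value was 0.37 and 0.39. In 6 of the 9 genes every *MxCDX2* mouse lay above every control mouse, in 1, *Smad3*, every one lay below, and in 2 the groups overlapped. Among all tested genes, 42.1% had groups that did not overlap, 21.4% with the *MxCDX2* mice above and 20.7% with them below. The smallest p that exact permutation of 3 against 3 mice allows is 0.1 (two-sided), and each gene with separated groups had that value.

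**Figure D1:**
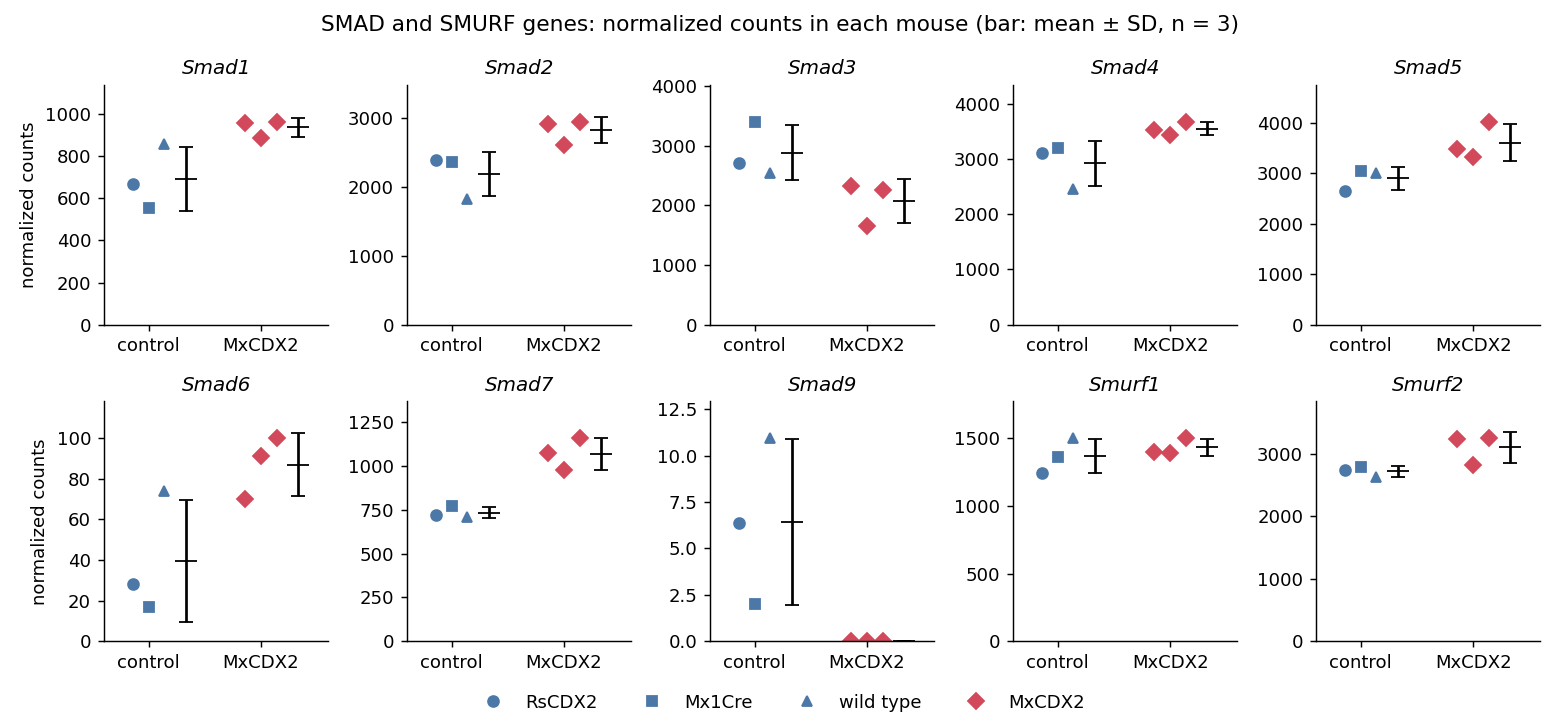
Normalized counts (vertical axes, each from 0) of the 10 genes in the 3 control mice (circle RsCDX2, square Mx1Cre, triangle wild type) and the 3 *MxCDX2* mice (diamonds), with a bar for the mean ± SD (n = 3). *Smad7* was higher in all 3 *MxCDX2* mice by more than the spread, *Smad3* lay lower, *Smad9* had no reads in *MxCDX2* mice, and the groups of *Smad6* and *Smurf1* overlapped.

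Sequence before the start site, the 250 bases upstream in RefSeq's GRCm38.p6 annotation, was at hand for 7 of the 10 genes in 9 windows. *Smad2*, *Smad4* and *Smad7* had no window, so the gene that passed the test was not searched. Those of *Smad3* and *Smad6* are shown because the fitted changes of these neighbours had opposite signs, and that of *Smad9* because its reads were absent from the *MxCDX2* mice. The motifs searched, on both strands and none contained in another, were the CDX core TTTAT, the SMAD box CAGAC and the GC-rich SMAD element GGCGCC. Capitals mark a match. The windows are chr9:63757995-63758244 (minus strand) for *Smad3*, chr9:64022060-64022309 (minus strand) for *Smad6* and chr3:54755332-54755581 (plus strand) for *Smad9*.
Smad3: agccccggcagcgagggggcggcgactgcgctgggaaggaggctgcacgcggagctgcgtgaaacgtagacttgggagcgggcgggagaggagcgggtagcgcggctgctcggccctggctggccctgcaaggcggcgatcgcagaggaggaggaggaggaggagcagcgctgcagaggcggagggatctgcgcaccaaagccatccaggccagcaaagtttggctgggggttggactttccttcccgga
Smad6: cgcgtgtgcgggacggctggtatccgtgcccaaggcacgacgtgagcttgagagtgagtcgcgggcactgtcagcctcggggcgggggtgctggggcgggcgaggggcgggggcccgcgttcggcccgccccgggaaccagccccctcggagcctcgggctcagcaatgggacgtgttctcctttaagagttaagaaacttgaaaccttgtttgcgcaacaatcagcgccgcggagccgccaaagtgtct
Smad9: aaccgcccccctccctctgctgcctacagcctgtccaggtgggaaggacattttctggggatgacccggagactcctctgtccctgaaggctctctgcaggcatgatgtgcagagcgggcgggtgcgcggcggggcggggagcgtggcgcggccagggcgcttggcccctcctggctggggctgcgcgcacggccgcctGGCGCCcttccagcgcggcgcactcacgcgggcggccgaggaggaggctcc
None of the 9 windows of the 7 genes held the letters of the CDX core, which 37.3% of all 32817 windows of this length held. The study searched longer promoter regions for CDX sites. The windows were rich in G and C, from 60% to 82% against a median of 52.4% over all windows. The SMAD box was in 3 of the 9 windows, those of *Smurf1*, *Smurf2* and 1 start of *Smad5*, and in 42.2% of all windows. The GC-rich element was in 3, those of *Smad9*, *Smurf2* and another start of *Smad5*, and in 9.59% of all windows. The *Smad5* windows at 56702760 to 56703009 and at 56702802 to 56703051 overlap, so the 9 windows are not all separate. All windows were not matched to the members in G and C, so the shares are not a like comparison. A match here is a run of letters and not a binding site.

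The genes lie on 7 chromosomes of GRCm38 (GENCODE M21), and 3 of them lie within 2.67 Mb on chromosome 18. These are *Smad4* (ENSMUSG00000024515, minus strand, 73639009 to 73703780), *Smad7* (ENSMUSG00000025880, plus strand, 75367529 to 75395935) and *Smad2* (ENSMUSG00000024563, plus strand, 76241580 to 76310963). *Smad3* (ENSMUSG00000032402, 63646767 to 63757994) and *Smad6* (ENSMUSG00000036867, 63953076 to 64022059) follow each other on the minus strand of chromosome 9, 195.1 kb apart. *Smad1* (ENSMUSG00000031681) is on chromosome 8, *Smad5* (ENSMUSG00000021540) on chromosome 13, *Smad9* (ENSMUSG00000027796) on chromosome 3, *Smurf1* (ENSMUSG00000038780) on chromosome 5 and *Smurf2* (ENSMUSG00000018363) on chromosome 11. The exon bases that another annotated gene shares with a member came to 1.35% at most.

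Among the receptor-regulated SMADs of TGF-β and activin, *Smad2* and *Smad3* had fitted changes of opposite sign. *Smad3* had 2701, 3402 and 2542 normalized counts in the RsCDX2, Mx1Cre and wild-type control mice and 2315, 1653 and 2253 in *MxCDX2* mice 1, 2 and 3. All 3 *MxCDX2* mice lay below all 3 control mice, and *MxCDX2* mouse 2 was the lowest. The mean was 2882 ± 458 in control and 2073 ± 366 in *MxCDX2* mice (SD, n = 3 each). On the log2 scale this was a fitted change of -0.47 (95% interval -0.90 to -0.05 before adjustment, SE 0.18), and the adjusted p of 0.103 from edgeR did not pass. *Smad2* had 2387, 2357 and 1819 normalized counts in the control mice and 2906, 2606 and 2943 in the *MxCDX2* mice. Here the *MxCDX2* mice were the higher group and the wild-type mouse was the lowest of the 6. Its log2 fold change was 0.37 (95% interval 0.04 to 0.69, SE 0.14), and its adjusted p was 0.102 by edgeR.

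The ratio of the pair within each mouse does not depend on how libraries are scaled. Per kilobase of exon, the level of *Smad3* was 1.79, 2.29 and 2.21 times that of *Smad2* in the RsCDX2, Mx1Cre and wild-type control mice, and 1.26, 1.00 and 1.21 times in *MxCDX2* mice 1, 2 and 3. The lowest control ratio was thus above the highest *MxCDX2* ratio, with means of 2.10 ± 0.27 and 1.16 ± 0.14 (SD, n = 3 each). A ratio can show unequal change within the pair and not which gene moved. It was looked at after the values of both genes were known and was given no test. The erythroid and monocyte marker sums given above differed between the same groups. Their part in this ratio, and in the values of *Smad3* and *Smad7*, was not tested.

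Of the BMP-responsive SMADs, *Smad5* and *Smad1* had higher values in *MxCDX2* mice without passing the test. *Smad5* had 2648, 3049 and 3012 normalized counts in the control mice and 3477, 3329 and 4030 in the *MxCDX2* mice. Its lowest *MxCDX2* mouse lay above the highest control mouse, and the fitted log2 fold change was 0.32 (95% interval 0.04 to 0.59, SE 0.12, adjusted p = 0.0986 from edgeR). *Smad1* had 667, 552 and 856 normalized counts in the control mice, the wild-type mouse being the highest, and 959, 887 and 965 in the *MxCDX2* mice. The spread over the control mice (SD 153, n = 3) exceeded that over the *MxCDX2* mice (SD 43.4, n = 3), and the fitted log2 fold change was 0.44 (95% interval -0.01 to 0.89, SE 0.19, adjusted p = 0.147 from edgeR). Without the wild-type mouse it was 0.64 with an adjusted p of 0.0251, and *Smad1* then passed, as did 27% of all genes. *Smad1* passed in 1 of the 6 fits with a mouse left out, with an adjusted p up to 0.317 by edgeR. The wild-type mouse also had the highest megakaryocyte and endothelial marker sums of the 6. The *MxCDX2* mice, with the higher *Smad1* values, had the lowest of these sums, at 9941 to 13718 and 694 to 950 normalized counts. The part of these markers in the *Smad1* reads was not tested.

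*Smad9*, the third BMP-responsive SMAD, had few reads in any mouse. It had 5, 2 and 12 reads in the RsCDX2, Mx1Cre and wild-type control mice and 0 in each *MxCDX2* mouse, too few to pass the filter on low counts. With the group of *MxCDX2* mice at 0, an upper limit of 3 reads over the whole group places *Smad9* at least 6.83-fold lower than in the control mice pooled, by counting error only. The limit was 4.06-fold without the wild-type mouse, which left 7 control reads, and 4.31-fold without *MxCDX2* mouse 3. In fits that kept such genes, the adjusted p was 0.024 with DESeq2 and 0.0456 with edgeR on every gene with at least 1 count. *Smad9* entered both fits through its control reads alone, and neither fit was run without the wild-type mouse. The wild-type mouse, which held 12 of the 19 control reads, was also the highest in the summed endothelial markers (above) and in the 6 stromal and bone markers, with 52001 normalized counts against 29654 and 13686. These lists were lower in the *MxCDX2* mice, at 694 to 950 and 5576 to 13512 normalized counts, and their part in the reads on *Smad9* was not tested.

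*Smad4*, the partner shared by both branches, had 3107, 3205 and 2449 normalized counts in the control mice and 3527, 3435 and 3676 in the *MxCDX2* mice. The groups did not overlap, and the wild-type mouse was again the lowest. The log2 fold change was 0.28 (95% interval -0.02 to 0.58, SE 0.13, adjusted p = 0.161 from edgeR), and the interval holds no change of 2-fold in either direction.

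The inhibitory *Smad7* rose in *MxCDX2* mice. It had 719, 772 and 712 normalized counts in the RsCDX2, Mx1Cre and wild-type control mice and 1077, 977 and 1160 in *MxCDX2* mice 1, 2 and 3. The 3 control mice lay close together and the 3 *MxCDX2* mice were all above them. The mean was 734 ± 32.4 in control and 1071 ± 92.0 in *MxCDX2* mice (SD, n = 3 each), and the fit gave a rise of 45.9%, or 0.55 on the log2 scale (95% interval 0.23 to 0.86, SE 0.13, adjusted p = 0.0294 from edgeR). DESeq2 gave the same size, 0.55, with an adjusted p of 0.00368. With 1 mouse left out, *Smad7* passed in 2 of 6 fits. The adjusted p was 0.0757, 0.0621, 0.0793 and 0.128 in edgeR fits without the RsCDX2 mouse, the Mx1Cre mouse, *MxCDX2* mouse 1 and *MxCDX2* mouse 3, while the log2 fold change lay between 0.49 and 0.61 over those 6 fits. The adjusted p was 0.0331 without the wild-type mouse and 0.0482 without *MxCDX2* mouse 2. Of all genes, 14.4%, 15.3%, 14.5% and 9.09% passed in the fits where *Smad7* did not, in the order given. The share was 27% and 12.5% where it did, beside 21.7% with all 6 mice.

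*Smad6*, the other inhibitory SMAD, was scarce and uneven. It had 28.1, 16.9 and 73.8 normalized counts in the RsCDX2, Mx1Cre and wild-type control mice and 69.9, 91.1 and 100.1 in the *MxCDX2* mice. The wild-type mouse lay within the range of the *MxCDX2* mice, and the other control mice far below it. The log2 fold change of 1.13 was the largest of the 9 tested genes and also the least certain (95% interval -0.19 to 2.45, SE 0.55, adjusted p = 0.196 from edgeR, exact permutation p = 0.2, two-sided). Without the wild-type mouse, it was 1.98 with an adjusted p of 0.0164, past both thresholds, in a fit where 27% of all genes passed. *Smad6* passed in 1 of the 6 fits with a mouse left out. Over those fits its log2 fold change went down to 0.76 and its adjusted p up to 0.383 by edgeR. Endothelial and megakaryocyte markers were highest in the wild-type mouse and lowest in the *MxCDX2* mice, as given above. Their part in the *Smad6* reads was not tested.

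The SMURF ligases had the smallest fitted changes of the 9 tested genes. *Smurf1* had 1246, 1359 and 1502 normalized counts in the control mice and 1403, 1394 and 1502 in the *MxCDX2* mice. The groups overlapped, and the log2 fold change of 0.07 (SE 0.12) had a 95% interval from -0.22 to 0.35 and an adjusted p of 0.737 by edgeR. *Smurf2* had 2738, 2788 and 2627 normalized counts in the control mice and 3238, 2820 and 3253 in the *MxCDX2* mice. Its groups were apart, though *MxCDX2* mouse 2 exceeded the Mx1Cre control mouse by little. The fitted log2 fold change was 0.19 (95% interval -0.04 to 0.43, SE 0.10, adjusted p = 0.216 from edgeR).

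**Figure D2:**
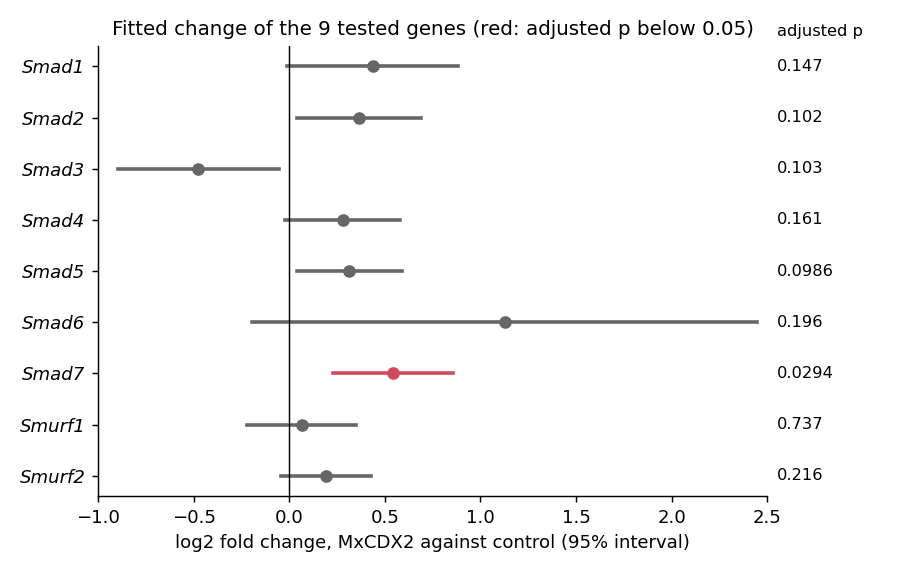
Log2 fold change of *MxCDX2* against control mice (horizontal axis, positive where *MxCDX2* is higher) for the 9 tested genes, with points for the fitted value, lines for its 95% interval before adjustment and the adjusted p at the right (edgeR, 3 mice against 3). *Smad7* in red, at 0.55, was the gene that passed, *Smad3* at -0.47 was the one gene below 0, and *Smad6* at 1.13 had the widest interval.

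Per kilobase of exon, and so on a scale that allows genes to be compared, *Smad4* was the most abundant of the 10 genes in both groups. Its level in CPM (counts scaled to a common library size) per kilobase was 17.3 ± 2.44 for the control and 21.0 ± 0.72 for the *MxCDX2* group (SD, n = 3 each). In control mice the order below it was *Smad3* (11.4 ± 1.82), *Smurf2* (9.70 ± 0.29), *Smad5* (8.60 ± 0.66), *Smad2* (5.48 ± 0.80), *Smurf1* (4.75 ± 0.45), *Smad7* (3.57 ± 0.16), *Smad1* (2.43 ± 0.54), *Smad6* (0.27 ± 0.21) and *Smad9* (0.026 ± 0.018). Of neighbours in this order, the levels of *Smad2* and *Smurf1* overlapped over the 3 mice, and those of *Smad3* and *Smurf2* were apart by little, the lowest *Smad3* mouse being at 10.1 and the highest *Smurf2* mouse at 9.95. In *MxCDX2* mice, *Smad3* stood behind *Smad4*, *Smurf2* (11.1 ± 0.88) and *Smad5* (10.7 ± 1.10). Its level of 8.23 ± 1.45 overlapped that of *Smad2*, 7.06 ± 0.46. The levels of *Smurf2* and *Smad5*, and of *Smad7* (5.21 ± 0.45) and *Smurf1* (4.97 ± 0.21), also overlapped there. By level per kilobase, *Smad4* was above 79.5% and *Smad6* above 11.3% of the tested genes in control mice.

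Summed over the 8 SMAD genes, the level per kilobase was 49.0, 53.3 and 45.1 in the control mice and 56.8, 51.8 and 59.8 in the *MxCDX2* mice, so that the groups overlapped. *Smad3* made up 21.9%, 25.4% and 22.4% of it in the control mice and 16.2%, 12.7% and 14.96% in the *MxCDX2* mice. *Smad7* made up 7.14%, 7.05% and 7.68% in the control mice and 9.24%, 9.17% and 9.45% in the *MxCDX2* mice. Both shares were apart between the groups, *Smad3* with the lower and *Smad7* with the higher values in *MxCDX2* mice. *Smad2* and *Smad3* together held 34.3% ± 2.00 of the sum in control and 27.2% ± 1.88 in *MxCDX2* mice (SD, n = 3 each), a description with no test, and the BMP-responsive *Smad1*, *Smad5* and *Smad9* held 22.7% ± 3.36 and 24.9% ± 0.79. The ratio of *Smad1* to *Smad5* was 0.28 ± 0.06 in control and 0.31 ± 0.02 in *MxCDX2* mice, and that of *Smurf1* to *Smurf2* was 0.49 ± 0.06 and 0.45 ± 0.03 (SD, n = 3), each with overlapping groups. These shares need no scaling of libraries, but they rest on the annotated exon lengths. The part of the differing cell type markers in them was not tested.

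**Figure D3:**
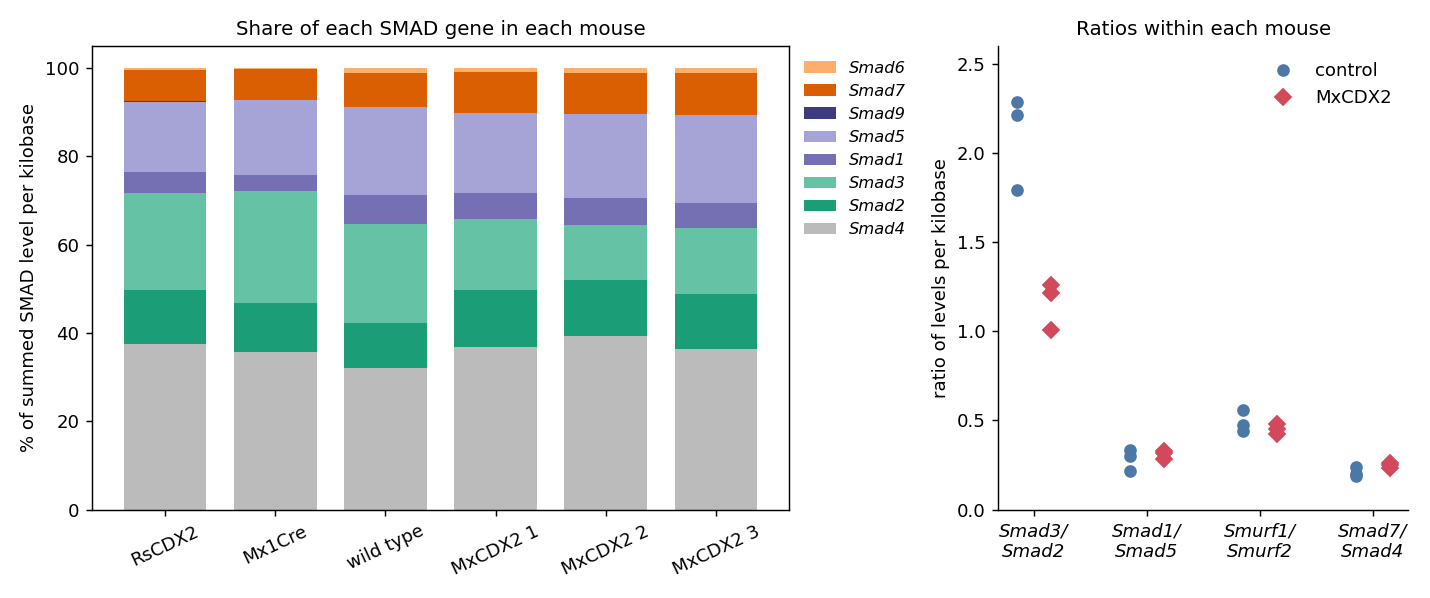
Left, share of each SMAD gene (vertical axis, percent of the level per kilobase summed over 8 SMAD genes) in each of the 6 mice. Right, ratios of levels per kilobase within a mouse (points, 3 control and 3 *MxCDX2* mice). *Smad3* took 21.9% to 25.4% of the sum in control mice and 12.7% to 16.2% in *MxCDX2* mice, and its ratio to *Smad2* was 1.79 to 2.29 and 1.00 to 1.26.

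Ligands, receptors, partners and targets of the SMADs were counted in lists. Among ligands, 4 of 10 tested genes fell in *MxCDX2* mice and none rose (9.91% of all tested genes rose and 11.8% fell at an adjusted p below 0.05). The median log2 fold change of the 10 was -1.10, beside 0.00 over all tested genes. *Inhba*, which encodes the subunit of activin A, fell from 908 ± 333 to 237 ± 35.0 normalized counts (SD, n = 3 each; log2 fold change -1.94, SE 0.31, adjusted p = 0.00783 from edgeR). *Bmp6*, *Gdf11* and *Bmp4* had log2 fold changes of -1.92, -1.21 and -2.93 (adjusted p = 0.0200, 0.0323 and 0.0335 from edgeR). In each, all *MxCDX2* mice lay below all control mice. The RsCDX2, Mx1Cre and wild-type mice had 135, 102 and 265 normalized counts of *Bmp6* and 47.3, 79.4 and 294 of *Bmp4*. The wild-type mouse was thus the highest in both. *Bmp4* falls outside the naming rule and is named after its value was seen. Without *MxCDX2* mouse 1, 2 or 3, 1 ligand passed in each of the 3 fits, beside 14.5%, 12.5% and 9.09% of all genes. *Tgfb1*, the main TGF-β of blood cells, did not pass and is likewise named after its value was seen (log2 fold change 0.32, adjusted p = 0.477 from edgeR). It had 7007, 8124 and 15437 normalized counts in the RsCDX2, Mx1Cre and wild-type control mice and 12005, 12977 and 13295 in the *MxCDX2* mice. The wild-type mouse was the highest of all, and the other control mice lay below every *MxCDX2* mouse.

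Of 12 tested receptors and coreceptors, 5 rose and 4 fell, a share of 75% beside 21.7% over all tested genes. The median log2 fold change was 0.43. *Bambi*, the pseudoreceptor that the study follows, had 158, 115 and 172 normalized counts in control mice and 2082, 2413 and 2443 in *MxCDX2* mice (log2 fold change 3.96, adjusted p = 0.000695 from edgeR). The type I receptors *Acvr1* and *Acvr1b* rose by 2.18 (adjusted p = 0.00174) and 0.87 (adjusted p = 0.00318) on the log2 scale. *Acvr2a* and *Bmpr2*, named after their values were seen, rose by 1.36 and 0.87 (adjusted p = 0.00401 and 0.00942 from edgeR). The 4 that fell were *Acvrl1*, *Bmpr1a*, *Tgfbr2* and *Tgfbr3*, named after their values were seen. Their log2 fold changes were -1.23, -1.52, -0.72 and -2.13 (adjusted p = 0.00431, 0.00406, 0.00531 and 0.0298 from edgeR). ACVR1 acts on the BMP-responsive SMADs, as do the type I receptors ACVRL1 and BMPR1A, whose genes fell. ACVR1B, an activin receptor, acts on SMAD2 and SMAD3. This list moved in both directions, while *Smad7* was the one SMAD that passed.

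Among 9 tested nuclear partners of SMADs, 2 rose and 1 fell, and the median log2 fold change was -0.01. The share that passed, 33.3% beside 21.7% over all tested genes, rests on 3 genes. *Zeb1*, which encodes a zinc finger factor that binds SMADs, fell from 1872 ± 78.2 to 659 ± 11.7 normalized counts (SD, n = 3 each; log2 fold change -1.51, adjusted p = 0.00123 from edgeR). *Zeb2*, its relative and a repressor partner of SMADs, rose by 1.25 (adjusted p = 0.0131), and *Ski*, whose product represses SMAD complexes, by 0.68 on the log2 scale (adjusted p = 0.00331).

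Of 18 genes for SMAD turnover and dephosphorylation, 2 rose and 3 fell, a share of 27.8% beside 21.7% over all tested genes, and here too the median log2 fold change was -0.01. *Rnf11*, which encodes a small protein that binds SMURF2, fell from 7314 ± 951 to 2656 ± 255 normalized counts (SD, n = 3 each; log2 fold change -1.46, adjusted p = 0.00174 from edgeR). *Usp15*, for an enzyme that removes ubiquitin from receptor-regulated SMADs, had a log2 fold change of -0.90 (adjusted p = 0.00428). *Zfyve9*, whose product SARA presents SMAD2 and SMAD3 to the receptor, rose by 2.07 (adjusted p = 0.0104). Without *MxCDX2* mouse 1 or 3, 3 genes of this list passed in each fit, beside 14.5% and 9.09% of all genes.

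Of 12 tested genes that SMADs are known to induce, 1 rose and 2 fell, with a median log2 fold change of -0.21. This share of 25% was near the 21.7% over all tested genes. *Id3*, an inhibitor of differentiation and a BMP target, had 475, 674 and 938 normalized counts in the control mice and 208, 121 and 259 in the *MxCDX2* mice (log2 fold change -1.83, adjusted p = 0.0163 from edgeR). *Atoh8*, another BMP target, fell by 87.5%, from 57.9 ± 31.9 to 7.19 ± 2.73 normalized counts (SD, n = 3 each; adjusted p = 0.0124). *Cdkn2b*, a cell cycle inhibitor induced by TGF-β, rose from 9.43 ± 3.69 to 54.3 ± 34.0 (SD, n = 3 each; 5.66-fold, adjusted p = 0.0242). *Id1*, the relative of *Id3*, named after its value was seen, had a log2 fold change of 0.61 and did not pass (adjusted p = 0.138). The number that passed was 5 with DESeq2 and 5 without the wild-type mouse, and 1 without *MxCDX2* mouse 3. Of all genes, 24.6%, 27% and 9.09% passed in these fits. The erythroid and monocyte marker sums given above differed between the same groups as all 5 lists, and their part in these changes was not tested.

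**Figure D4:**
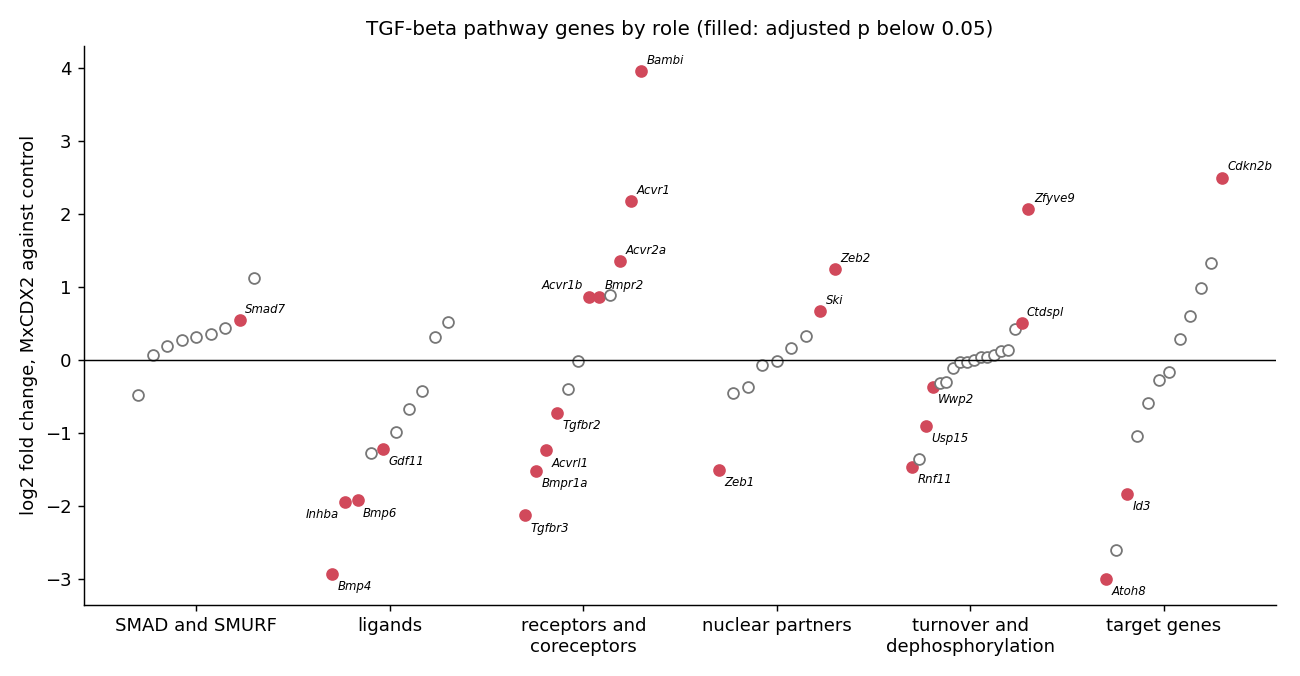
Log2 fold change of *MxCDX2* against control mice (vertical axis) for the tested genes of each role, sorted within a role, with filled points at an adjusted p below 0.05 (edgeR) and open points for the others. Filled points number 1 of 9 for SMAD and SMURF genes, 4 of 10 for ligands, 9 of 12 for receptors and coreceptors, 3 of 9 for nuclear partners, 5 of 18 for turnover and dephosphorylation and 3 of 12 for target genes. Over all tested genes, 21.7% passed.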

How the data were processed

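Bone marrow RNA of 3 *MxCDX2* and 3 control mice was sequenced as stranded mRNA libraries. Per the labels and the study's methods, the authors aligned reads with STAR 2.5 to GRCm38 (Ensembl release 90), counted them per gene with HTSeq 0.6.1 and deposited raw counts of each mouse. The strand setting of the counting is not given in the sources used here. Reads that HTSeq left without a gene (9.22% to 14.1%) or ambiguous (2.99% to 3.16%) were not used.

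Genes were named from GENCODE M21. Counts were fitted in R 4.3.3 with edgeR 4.0.16 (TMM, default filterByExpr, glmQLFit, glmQLFTest), and p-values were adjusted over 15980 genes. Standard errors came from the F statistic, and intervals from its moderated degrees of freedom. Levels per kilobase used merged exons. Alternatives were DESeq2 1.42.0, other scalings and filters, and each mouse left out in turn. The fits were tested on simulated data.

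All 10 members are named, with up to 3 genes per pathway list that passed, in order of adjusted p, and *Bambi* and *Cdx2*. *Bmp4*, *Tgfb1*, *Id1*, *Acvr2a*, *Bmpr2*, *Acvrl1*, *Bmpr1a*, *Tgfbr2* and *Tgfbr3* were added after their values were seen. The members and lists were chosen with earlier results of these data known. The labels call the mice separate animals. Figures were made with matplotlib 3.10.9.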

Additional observations from a re-analysis of the deposited data

How the results depend on the processing

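Every tested member kept its direction under all 12 alternatives. With total counts as the only scaling, which moved the log2 fold changes of all genes by a median of 0.116 and the share of rises among all calls from 45.6% to 58.6%, 5 members passed in place of 1, with log2 fold changes of 0.49 for *Smad2*, 0.40 for *Smad4*, 0.43 for *Smad5* and 0.31 for *Smurf2* besides *Smad7*. With DESeq2, and with every gene of at least 1 count, 2 members passed, and 1 also had an absolute log2 fold change above 1. This was *Smad9*, which the default filter leaves out. Over all genes, 25% passed with total counts, 24.6% with DESeq2 and 13.2% with at least 1 count. Leaving out each mouse in turn gave between 0 and 3 members, and between 0 and 1 with the fold threshold, with log2 fold changes of 0.49 to 0.61 for *Smad7*, 0.30 to 0.64 for *Smad1* and 0.76 to 1.98 for *Smad6*. The same fits gave 1 to 4 ligands, 3 to 6 turnover genes and 1 to 5 target genes. Over all genes they gave between 1482 and 4361 calls in place of 3471, or 9.09% to 27% in place of 21.7%. Target genes numbered 5 with DESeq2 and 1 with at least 10 counts in every mouse, a filter that removes *Atoh8* and *Cdkn2b*. With the longest transcript in place of merged exons, the level of *Smad1* was 4.03 and 5.46 in place of 2.43 and 3.29, which placed it above *Smad7* in control mice.

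Depth limits *Smad9*, with 19 control reads in all. The lower limit on its fold ranged from 4.06 to 9.39 with each mouse left out, an alternative chosen after seeing the data. No paired analysis was possible because the labels number the *MxCDX2* mice alone and give the control mice no number.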

Other observations

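*Smad4*, *Smad7* and *Smad2* lie within 2.67 Mb of chromosome 18, and all 3 had higher values in *MxCDX2* mice. The 18 other tested genes between the start of *Smad4* and the end of *Smad2* had a median log2 fold change of -0.01, with 3 higher and 1 lower at an adjusted p below 0.05 (edgeR). Over the 376 other tested genes of chromosome 18 the median was 0.05, with 36 higher and 33 lower. Of all tested genes, 9.91% were higher and 11.8% lower. Between *Smad3* and *Smad6* on chromosome 9 no other gene was tested.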
